A study of Mus musculus with 38 samples.

Results

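Livers of calorie-restricted (CR) mice were compared with those of mice fed ad libitum (AL, free access to food) at the time labelled 0 h, across all genes of the deposited count table. The members were chosen by their labels alone and were 5 of the 38 libraries, 3 of AL_0h and 2 of CR_0h. All were RNA sequencing libraries of whole liver from female wild-type C57BL/6 mice, a common inbred strain. The other 33 libraries covered both diets at 6, 14 and 22 h, fasted mice at the same times, and CR mice that were fed or missed a meal. The sources used here give neither the degree of restriction nor the event that sets 0 h, and nothing in them ties a replicate to its own animal. The p-values therefore measure the spread between these samples, which may be technical. The labels give 5, 6 and 7 months of age for AL_0h and 8 and 9 months for CR_0h, in a run of ages that climbs with the sample order up to 44 months. If these ages are right, age and diet cannot be told apart at 0 h. The labels also make CR older at 6 h (11 and 12 months for AL, 14 to 16 for CR). At 14 h they give 20 to 22 months for AL and 23 to 25 for CR, and at 22 h 29 to 31 and 32 to 35. The same limit then holds at these times, and age rises with labelled time.

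Calorie restriction means a smaller daily ration without malnutrition, and restricted mice usually eat the ration within a short time and then fast until the next. The liver takes up nutrients after the meal, storing glycogen and making fat, and between meals it releases glucose and oxidizes fatty acids under the control of insulin, glucagon, glucocorticoids and the fatty acid receptor PPARA. Many liver genes also follow the circadian clock, a feedback loop of transcription factors that food can shift, and heat shock genes, whose products help proteins fold, respond to temperature and to feeding.

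The 5 libraries held 19878912 to 24349318 expected counts. Liver identity was clear: the 10 hepatocyte markers found in the table summed to 106400 to 144900 CPM (expected counts scaled to a common library size by TMM) in AL_0h and 119000 to 180100 CPM in CR_0h. Library AL_0h 2 stood apart in its clock. Over 13 clock genes its profile correlated at 0.846 with the libraries of 14 h and at -0.724 with the other 0 h libraries. Nr1d1, a clock repressor, was at 130.2 CPM in AL_0h 2 against 6.78 and 2.18 CPM in the other AL_0h libraries and 6.65 and 3.70 CPM in CR_0h. Per2, a period gene of the clock, was at 14.3 CPM in AL_0h 2 against 64.9 and 84.2 CPM in AL_0h 1 and 3. The clock profile of AL_0h 3 also followed another time better, at 0.615 with 6 h against 0.228 with 0 h. That of CR_0h 1 correlated at 0.701 with 22 h and at 0.606 with 0 h. AL_0h 3 stood apart in its whole profile too. Over all genes its deviation from the series mean correlated at 0.485 and 0.382 with the CR_0h libraries, and at 0.136 and -0.158 with AL_0h 1 and 2. The CR_0h libraries correlated with each other at 0.56. These are descriptions across genes, and the libraries share a normalization.

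**Figure D1:**
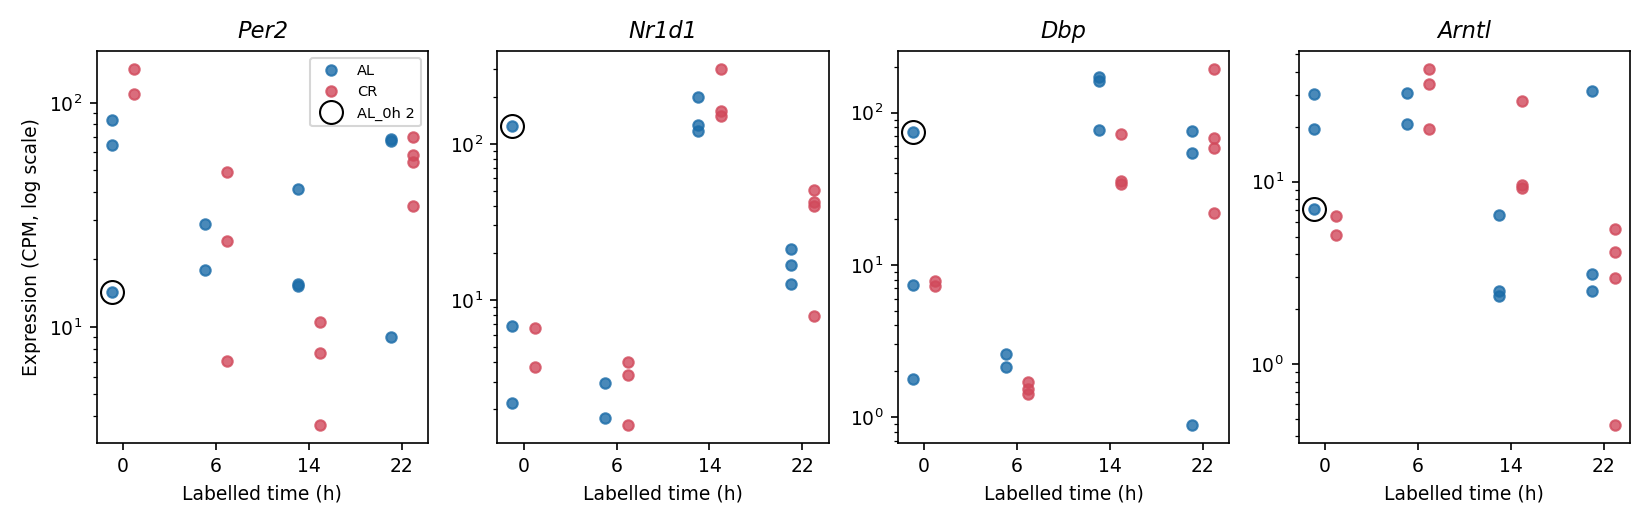
Expression in CPM on log axes of 4 clock genes in each AL and CR library, by labelled time in hours, with AL_0h 2 circled. AL_0h 2 has 130.2 CPM of Nr1d1 and 14.3 CPM of Per2, among the libraries of 14 h and away from the other 0 h libraries.

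At 0 h, 66 of 13786 tested genes (0.479%) differed between the diets, 29 higher (0.21%) and 37 lower (0.268%) in CR_0h, by edgeR's quasi-likelihood test with a Benjamini-Hochberg adjusted p under 0.05. The heat shock genes Hspa1a and Hspa1b and the immediate-early genes Jun and Dusp1 were among those that rose. The nuclear receptor gene Nr0b2, the growth factor receptor gene Erbb3, the adaptor gene Grb7 and the cell death gene Bbc3 were among those that fell. In each of the 66 genes the CR_0h libraries lay outside the range of the AL_0h libraries. That was so for 14% of all tested genes upward and for 14% downward, 28.1% in all. At an unadjusted p under 0.05 edgeR called 10.8% of the tested genes. The median log2 fold change over all tested genes was -0.01.

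The number of calls rested on single libraries. It was 14 without AL_0h 1, 11 without AL_0h 2 and 225 without AL_0h 3, the AL library nearest to CR_0h, and 2 without CR_0h 2. Without CR_0h 1, edgeR called 0 genes, with 911 at an unadjusted p under 0.05, and DESeq2 called 33. None of the 66 calls was kept in each of these 5 fits, which had to follow from the fit without CR_0h 1. The direction of all 66 was kept, but the lack of overlap in these genes made that all but certain. Leaving out AL_0h 2 and AL_22h 2, whose clock profiles correlated negatively with their own labelled time, gave 24 calls.

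**Figure D2:**
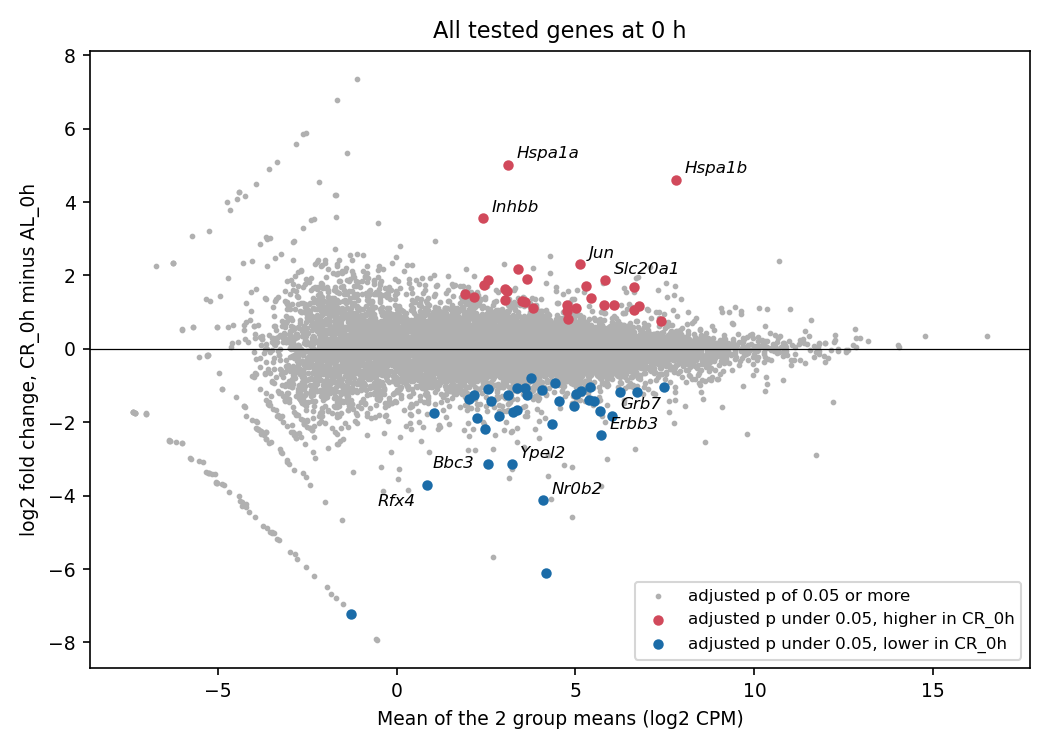
Log2 fold change of CR_0h against AL_0h for each tested gene, against the mean of both group means in log2 CPM. Filled red points are the 29 genes that rose and filled blue points the 37 that fell. Hspa1a, Hspa1b and Inhbb lie far above 0 and Nr0b2 far below.

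Heat shock genes showed the greatest increases among the genes named by rule. Hspa1b, which encodes the inducible chaperone HSP70, was at 16.5, 4.52 and 31.6 CPM in AL_0h 1 to 3 and at 392 and 466 CPM in CR_0h 1 and 2. Both CR_0h libraries were far above the highest AL_0h library, and AL_0h 2 was the lowest. The fold was 24.5 (log2 4.61 ± 0.86 SE, edgeR adjusted p = 0.00796). Its near-identical neighbour Hspa1a was at 0.936, 0.0365 and 0.601 CPM in AL_0h and at 15.6 and 18.0 CPM in CR_0h. That is a rise of 5.02 ± 0.96 (edgeR adjusted p = 0.0107). The copies may share reads, so how a rise divides between them is uncertain.

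Both genes lie on chromosome 17 and start within a short distance of each other, Hspa1a at chr17:34969190-34972156 and Hspa1b at chr17:34956436-34959238, both on the minus strand (GRCm38). Their promoters are printed because the genes moved together. The 250 bases before each RefSeq start (GRCm38.p6, 5′ to 3′ on the gene's strand) lie at chr17:34972157-34972406 and chr17:34959239-34959488. Capitals mark GAANNTTC, the core of the heat shock element bound by heat shock factors, searched on both strands.
Hspa1a: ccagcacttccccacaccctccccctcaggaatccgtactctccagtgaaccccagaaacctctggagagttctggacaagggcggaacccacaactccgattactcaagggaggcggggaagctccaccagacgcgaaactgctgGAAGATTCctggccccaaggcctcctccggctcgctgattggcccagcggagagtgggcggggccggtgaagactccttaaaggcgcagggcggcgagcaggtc
Hspa1b: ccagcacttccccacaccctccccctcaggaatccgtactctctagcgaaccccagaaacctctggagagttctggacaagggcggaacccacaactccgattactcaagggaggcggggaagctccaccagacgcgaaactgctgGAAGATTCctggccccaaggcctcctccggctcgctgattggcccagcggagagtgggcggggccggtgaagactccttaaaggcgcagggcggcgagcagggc
The windows were identical at 247 of 250 bases, and in each the motif began 104 bases before the start. Of 32851 RefSeq windows of this length, 6.69% held the motif. Among the 14 genes of the heat shock list, 10 had a window and 6 of these held it. A match describes the letters and shows no binding.

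Hspa1a and Hspa1b were the 2 of 14 heat shock and cold-inducible genes that passed the test, in edgeR and in DESeq2. The list's median was 0.81 against -0.01 for all tested genes. The CR_0h libraries lay above all AL_0h libraries in 8 of the 14 genes and below them in 1, Cirbp, where 14% of all tested genes did so each way. The co-chaperone gene Dnaja1 was at 385, 180.4 and 534 CPM in AL_0h and at 706 and 753 CPM in CR_0h (0.99 ± 0.35, edgeR adjusted p = 0.224). Hsph1, a nucleotide exchange factor of HSP70, was at 134, 26.2 and 151 CPM against 265 and 283 CPM (1.40 ± 0.67, edgeR adjusted p = 0.444). In both of these genes, as in Hspa1b, AL_0h 2 was the lowest library. The cold-inducible RNA-binding protein genes went opposite ways without passing the test: Rbm3 differed by 1.02 ± 0.42 (edgeR adjusted p = 0.339) and Cirbp by -1.03 ± 0.44 (edgeR adjusted p = 0.358). Without AL_0h 2 the list's median was 0.54, and neither Hspa1a nor Hspa1b passed (edgeR adjusted p = 0.104 and 0.0864). Hspa1b did not pass without AL_0h 1 either (edgeR adjusted p = 0.0723). Neither gene passed without CR_0h 1 or CR_0h 2, which leaves a single CR_0h library. The rises there were 5.11 and 4.92 in Hspa1a and 4.73 and 4.49 in Hspa1b.

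**Figure D3:**
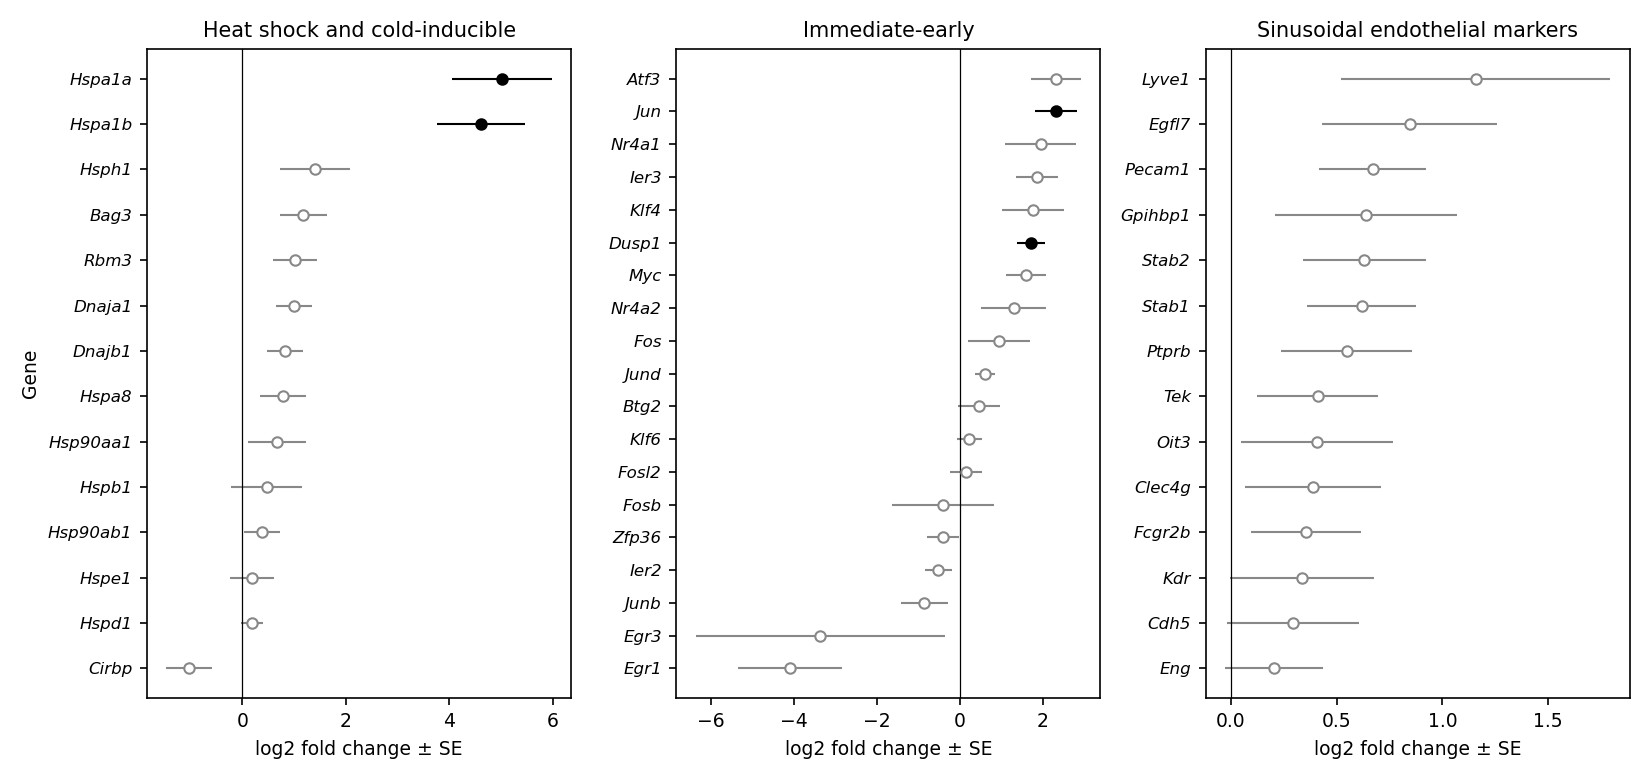
Log2 fold change of CR_0h against AL_0h with its standard error for each tested gene of 3 lists, with filled points where the adjusted p was under 0.05. Hspa1a, Hspa1b, Jun and Dusp1 are filled, and each of the 14 sinusoidal endothelial markers lies to the right of 0 without passing the test.

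Immediate-early genes are switched on within minutes of a signal and need no new protein for it. Of 19 tested, edgeR called 2 higher, Jun and Dusp1, and 0 lower (8 upward and 1 downward at an unadjusted p under 0.05). DESeq2 called 4 higher, Jun, Dusp1, Atf3 and Ier3, and 1 lower, Egr1. In 10 genes the CR_0h libraries lay above all AL_0h libraries and in 3 below, where 14% of all tested genes did so each way. Jun, a subunit of the transcription factor AP-1, was at 12.4, 6.67 and 16.2 CPM in AL_0h and at 54.0 and 62.9 CPM in CR_0h, so that the groups were well apart. Its change was 2.31 ± 0.51 (edgeR adjusted p = 0.0289). Dusp1, a phosphatase that switches off MAP kinases and is also induced by glucocorticoids, was at 17.7, 12.7 and 24.9 CPM against 71.3 and 49.2 CPM. It rose by 1.71 ± 0.34 (edgeR adjusted p = 0.0142). The list's median was 0.60. Without AL_0h 2 it was 0.47, and edgeR called 0 genes of the list.

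Members of that list did not all point the same way. Atf3, a stress-induced factor, was at 2.81, 1.42 and 3.76 CPM in AL_0h and at 13.4 and 13.3 CPM in CR_0h (2.32 ± 0.60, edgeR adjusted p = 0.0744). Egr1, a zinc finger factor of the growth factor response, was at 68.2, 13.9 and 30.6 CPM against 2.00 and 2.38 CPM (-4.10 ± 1.24, edgeR adjusted p = 0.136). In Egr1 the CR_0h libraries were below every AL_0h library, opposite to Jun and Atf3. Dusp1 was also the 1 of 17 glucocorticoid-responsive genes that edgeR called higher, with 0 called lower (1 upward and 2 downward at an unadjusted p under 0.05). That list's median was 0.20, with 11 positive and 6 negative fold changes. In 4 of its genes the CR_0h libraries lay above all AL_0h libraries and in 3 below, where 14% of all tested genes did so each way.

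The promoter of Dusp1 held a full cyclic AMP response element, TGACGTCA, the palindrome bound by CREB and related factors. It is shown because Dusp1 moved in 2 of the lists. The window lies at chr17:26508473-26508722 on the minus strand (RefSeq, GRCm38.p6), and capitals mark the element.
Dusp1: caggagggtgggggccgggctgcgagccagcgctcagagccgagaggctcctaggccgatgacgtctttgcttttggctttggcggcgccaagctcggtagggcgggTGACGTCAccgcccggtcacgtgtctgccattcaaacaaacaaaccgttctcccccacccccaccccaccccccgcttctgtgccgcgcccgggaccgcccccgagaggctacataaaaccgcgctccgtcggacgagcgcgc
The element began 143 bases before the start. It was present in 1.55% of all windows of this length on either strand, and in 2 of 16 immediate-early genes with a window, Dusp1 and Btg2.

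Several genes typical of blood vessel cells rose, a grouping made after their values were seen. Rasip1, which organizes endothelial cell junctions, was at 4.59, 4.67 and 4.85 CPM in AL_0h and at 11.0 and 12.6 CPM in CR_0h, with the AL_0h libraries close together. It rose by 1.32 ± 0.23 (edgeR adjusted p = 0.00558). Pcdh12, an endothelial protocadherin gene, rose by 1.59 ± 0.28 (edgeR adjusted p = 0.00558), with AL_0h at 2.62 to 5.32 CPM and CR_0h at 11.9 and 13.7 CPM. Thbd, the thrombin receptor thrombomodulin, rose by 2.17 ± 0.52 and Afap1l1, an actin-associated adaptor, by 1.40 ± 0.33 (both edgeR adjusted p = 0.0475).

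The 14 sinusoidal endothelial markers, a separate list chosen with earlier results of these data known, held none of these genes. Of the 14 markers, 0 passed the test by edgeR (4 upward and 0 downward at an unadjusted p under 0.05) or by DESeq2. Lyve1 passed without AL_0h 3. All 14 had a positive fold change, with a median of 0.48, and in 10 the CR_0h libraries lay above all AL_0h libraries, against 14% of tested genes. Their summed level was 303.7 to 409.2 CPM in AL_0h and 456.8 to 508.3 CPM in CR_0h, and none was at 0. Pecam1, an adhesion molecule of endothelium, was at 10.6, 14.3 and 14.7 CPM against 22.1 and 19.9 CPM (0.67 ± 0.25, edgeR adjusted p = 0.271). In whole liver, a larger share of endothelial cells and more RNA per cell cannot be told apart. The part of endothelial content in the rise of Rasip1, Pcdh12, Thbd and Afap1l1 was not tested. Summed markers of Kupffer cells and macrophages (329.7 to 620.3 CPM against 492.3 and 538.5 CPM) and of stellate cells (437.6 to 478.5 CPM against 429.2 and 529.2 CPM) overlapped between the groups. The 7 erythroid markers tested also all had a positive fold change, with a median of 1.05. Their sums overlapped, at 629.4 to 2111 CPM in AL_0h and at 1217 and 4714 CPM in CR_0h 1 and 2. None of the 12 lists of cell type markers held a gene that edgeR called. DESeq2 called 3 of 8 skeletal muscle markers lower, Acta1, Atp2a1 and Mb, whose summed list level was 0.656 to 1.17 CPM in AL_0h and 0 and 0.899 CPM in CR_0h.

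**Figure D4:**
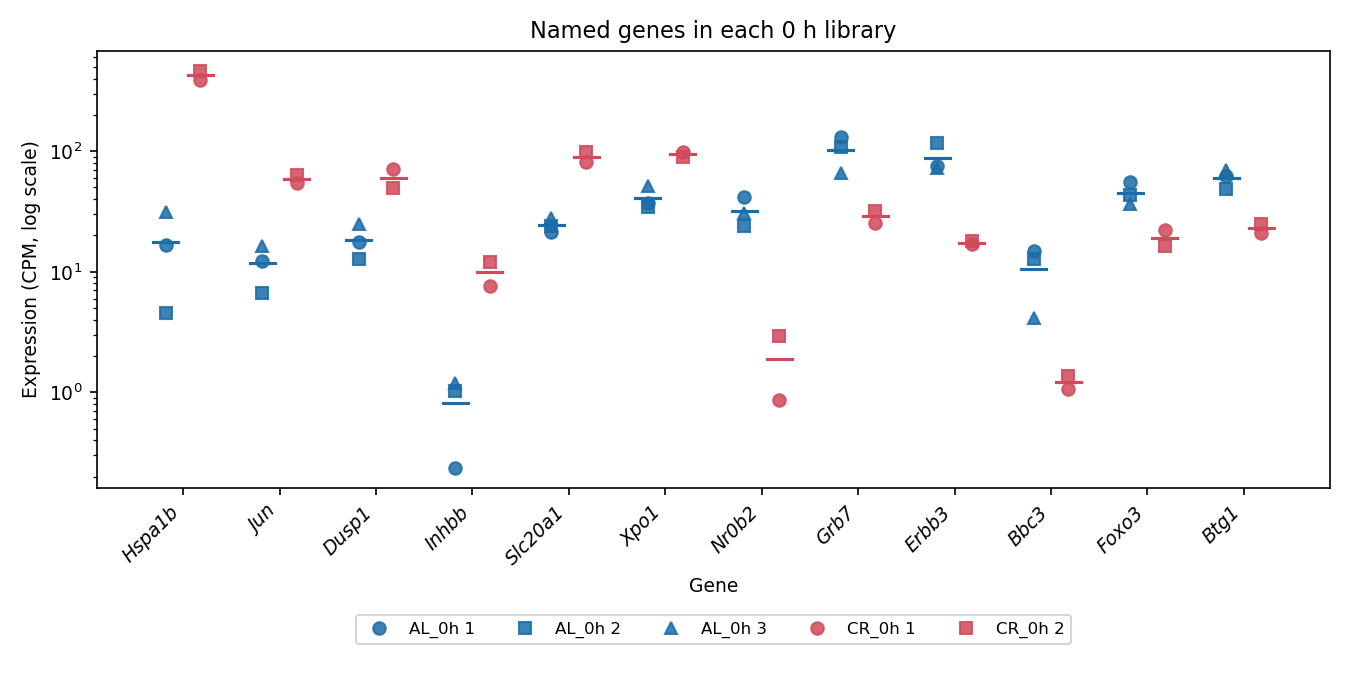
Expression in CPM on a log axis of 12 genes in each of the 5 libraries, with a bar at each group mean. The first 6 genes were higher and the last 6 lower in both CR_0h libraries than in all AL_0h libraries, with AL_0h 3 nearest to CR_0h in Bbc3, Grb7 and Foxo3.

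Secreted and signalling factors followed. Inhbb, the beta B subunit of inhibin and activin, which liver cells secrete, was at 0.234, 1.02 and 1.203 CPM in AL_0h and at 7.59 and 12.2 CPM in CR_0h. The increase was 3.56 ± 0.70 (edgeR adjusted p = 0.0125). Rcan1, an inhibitor of the phosphatase calcineurin, was at 49.7, 17.1 and 74.7 CPM against 161 and 144 CPM and rose by 1.69 ± 0.36 (edgeR adjusted p = 0.0217). Here again AL_0h 2 was lowest and AL_0h 3 highest within AL_0h. Prkch, a protein kinase C gene, rose by 1.73 ± 0.32 (edgeR adjusted p = 0.00796) and Shank3, a scaffold protein known from synapses, by 1.64 ± 0.36 (edgeR adjusted p = 0.0289).

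Slc20a1, a sodium-coupled phosphate importer, had tight groups: 21.3, 24.2 and 27.7 CPM in AL_0h, 81.5 and 97.8 CPM in CR_0h. It rose by 1.88 ± 0.33 (edgeR adjusted p = 0.00558). The lipid transfer protein gene Osbpl5 rose by 1.90 ± 0.45, the endoplasmic reticulum protein gene Tmcc2 by 1.89 ± 0.37 and the glycosyltransferase gene B3gnt3 by 1.49 ± 0.34, with edgeR adjusted p of 0.0451, 0.0125 and 0.0368. Acsl4, an acyl-CoA synthetase with a preference for arachidonate, was at 60.0, 60.1 and 80.6 CPM against 153 and 149.9 CPM and rose by 1.18 ± 0.23 (edgeR adjusted p = 0.0107).

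Xpo1, the exporter that carries proteins and ribosomal subunits out of the nucleus, rose from 37.2, 34.4 and 51.1 CPM in AL_0h to 99.3 and 89.3 CPM in CR_0h (1.205 ± 0.21, edgeR adjusted p = 0.00558). Genes of ribosome assembly also rose, picked here after their values were seen. Gtpbp4, a nucleolar GTPase of the large subunit, changed by 1.18 ± 0.24, Rrp1b, a nucleolar protein, by 1.29 ± 0.26, Usp36, a nucleolar deubiquitinase, by 1.02 ± 0.22 and Lsg1, a GTPase of late large-subunit maturation, by 0.80 ± 0.17. Their edgeR adjusted p-values were 0.0172, 0.0151, 0.0286 and 0.0217. In each of the 4 the CR_0h libraries lay above all AL_0h libraries, and AL_0h 3 was the highest of the AL_0h libraries.

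Nr0b2 had the lowest fold change of the genes named by rule. It encodes SHP, a nuclear receptor without a DNA-binding domain that bile acids induce through the receptor FXR and that represses bile acid synthesis. It was at 41.6, 23.9 and 30.9 CPM in AL_0h and at 0.869 and 2.91 CPM in CR_0h. Every AL_0h library was above both CR_0h libraries by a wide margin. The level was 17.5-fold lower in CR_0h (-4.13 ± 0.65, edgeR adjusted p = 0.00231). It passed without AL_0h 1, 2 or 3 and without CR_0h 2 (edgeR adjusted p between 0.00173 and 0.031), but not without CR_0h 1 (edgeR adjusted p = 0.192).

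Nr0b2 lies at chr4:133553376-133556536 on the plus strand. Its promoter is printed as that of the gene with the lowest fold change among those named by rule, at chr4:133553126-133553375 (RefSeq, GRCm38.p6). Capitals mark TCAAGG, the core of sites bound by monomeric orphan receptors such as LRH-1, searched on both strands.
Nr0b2: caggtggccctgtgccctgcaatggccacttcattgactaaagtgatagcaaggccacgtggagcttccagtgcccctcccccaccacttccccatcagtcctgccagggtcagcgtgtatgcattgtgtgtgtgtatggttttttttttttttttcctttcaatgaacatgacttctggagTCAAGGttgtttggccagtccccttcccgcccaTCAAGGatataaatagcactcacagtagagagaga
It held the motif 68 and 35 bases before the start. A single copy or more was found in 12.5% of all windows of this length, and in 2 of 15 bile acid genes with a window, Nr0b2 and Akr1d1.

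Of 19 genes of bile acid synthesis and transport, edgeR called Nr0b2 lower and 0 higher (0 upward and 5 downward at an unadjusted p under 0.05). DESeq2 called 3 lower, Nr0b2, Hsd3b7 and Cyp2c70, and limma with a pseudocount of 1 called 2, Nr0b2 and Hsd3b7. The list's median was -0.30. Cyp7a1, the rate-limiting enzyme of bile acid synthesis and a known target of repression by SHP, was at 211, 186 and 317 CPM in AL_0h and at 399 and 404 CPM in CR_0h. The CR_0h libraries were above all AL_0h libraries, but the difference of 0.75 ± 0.75 was no larger than its error (edgeR adjusted p = 0.821). Hsd3b7, an enzyme of the next steps, was at 221, 518 and 208 CPM against 138 and 102 CPM (-1.39 ± 0.35, edgeR adjusted p = 0.0663). Abcb11, the bile salt export pump, was at 480.4, 681 and 349 CPM against 193 and 256 CPM (-1.17 ± 0.42, edgeR adjusted p = 0.245). Without AL_0h 3, edgeR also called Nr0b2, Hsd3b7 and Cyp2c70 lower.

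Grb7, an adaptor protein that binds receptor tyrosine kinases, had an edgeR adjusted p of 0.000614. It was at 131, 108 and 66.0 CPM in AL_0h and at 25.4 and 32.2 CPM in CR_0h, and fell by 1.82 ± 0.26 on the log2 scale. AL_0h 3 was the AL_0h library nearest to CR_0h. Erbb3, a receptor for neuregulins with little kinase activity of its own, was at 75.4, 117 and 72.8 CPM against 16.8 and 17.9 CPM and fell by 2.35 ± 0.43 (edgeR adjusted p = 0.00795). Grb7 passed without AL_0h 1, 2 or 3 and without CR_0h 2, but not without CR_0h 1 (edgeR adjusted p = 0.0795). Erbb3 did not pass without AL_0h 2 (edgeR adjusted p = 0.0564) or without CR_0h 1 or 2 (edgeR adjusted p = 0.244 and 0.165).

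Of 22 genes of the growth hormone, insulin and insulin-like growth factor axis, edgeR and DESeq2 each called 1, Foxo3, lower and 0 higher (1 upward and 4 downward unadjusted in edgeR), and limma with a pseudocount of 1 called 0. The list's median was -0.08. Without AL_0h 2 edgeR called 0 genes of the list. Foxo3, a transcription factor that insulin signalling keeps out of the nucleus, was at 55.0, 43.3 and 36.5 CPM in AL_0h and at 22.0 and 16.3 CPM in CR_0h (-1.23 ± 0.27, edgeR adjusted p = 0.0299). The groups did not overlap. Igfbp1, a secreted binding protein that insulin suppresses, was at 27.7, 19.8 and 3.31 CPM against 1.62 and 1.90 CPM, with AL_0h 3 close to CR_0h (-3.26 ± 1.21, edgeR adjusted p = 0.258). Irs2, the insulin receptor substrate that fasting induces, was at 24.9, 24.0 and 25.7 CPM against 15.0 and 15.0 CPM (-0.73 ± 0.64, edgeR adjusted p = 0.777).

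Some genes known from growth arrest and cell death fell, of which Btg1 was picked after its values were seen. Bbc3, which encodes the death-promoting protein PUMA, was at 14.9, 12.8 and 4.17 CPM in AL_0h and at 1.06 and 1.37 CPM in CR_0h. It fell by 3.13 ± 0.65 (edgeR adjusted p = 0.0184) and was the 1 of 14 growth arrest and p53 target genes that edgeR called. DESeq2 called Sesn2, a stress-induced inhibitor of mTORC1 signalling, lower as well. The list's median was 0.01, with 7 positive and 7 negative fold changes. Without AL_0h 2 edgeR called 0 of the 14. Btg1, an antiproliferative gene, was at 62.0, 48.3 and 70.0 CPM against 21.2 and 25.0 CPM and fell by 1.38 ± 0.27 (edgeR adjusted p = 0.0125). Ccng2, a cyclin of cell cycle arrest, was at 11.8, 11.6 and 10.6 CPM against 2.80 and 3.60 CPM and fell by 1.83 ± 0.44 (edgeR adjusted p = 0.0475).

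Pdcd4, an inhibitor of translation initiation, fell by 1.71 ± 0.36 (edgeR adjusted p = 0.0202). It was at 80.3, 118 and 36.6 CPM in AL_0h against 23.0 and 25.0 CPM in CR_0h. Dyrk1b, a kinase of quiescent cells, fell by 2.17 ± 0.52 (edgeR adjusted p = 0.0486), but its AL_0h 3 value of 2.33 CPM was close to the 2.00 and 2.01 CPM of CR_0h, while AL_0h 1 and 2 were at 7.58 and 17.2 CPM. Ypel2, of the Yippee family, fell by 3.13 ± 0.67, and Crebrf, a regulator of the factor CREB3, by 1.72 ± 0.41 (edgeR adjusted p = 0.0217 and 0.0475). Tob1, an antiproliferative gene of the Btg1 family, rose by 0.75 ± 0.18 (edgeR adjusted p = 0.0475). It was at 126, 116 and 135 CPM in AL_0h and at 198 and 226 CPM in CR_0h.

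Genes of transport, membranes and signalling were among the others that fell. Nipal1, a magnesium transporter gene, fell by 2.04 ± 0.45, Slc17a4, an organic anion transporter gene, by 1.57 ± 0.37 and Ocln, the tight junction protein occludin, by 1.66 ± 0.34. Their edgeR adjusted p-values were 0.0289, 0.0475 and 0.0165. Necab1, a calcium-binding protein gene, fell by 1.42 ± 0.33, the endosomal adaptor gene Fam109a by 1.43 ± 0.31 and the inositol phosphate kinase gene Ipmk by 1.41 ± 0.30 (edgeR adjusted p = 0.0447, 0.0217 and 0.0217). In Nipal1, Slc17a4, Ocln, Fam109a and Ipmk, AL_0h 3 was the lowest AL_0h library.

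The gene model 8430408G22Rik, which GENCODE vM21 names Depp1, fell outside the naming rule and is given because its values stood out. It was at 36.4, 66.7 and 2.86 CPM in AL_0h and at 0.491 and 0.529 CPM in CR_0h (-6.11 ± 0.87, edgeR adjusted p = 0.000614). AL_0h 3 was closer to the CR_0h libraries than to the other AL_0h libraries. Rfx4, a transcription factor gene of the RFX family that was also singled out afterwards, was low throughout, at 2.57, 6.34 and 1.28 CPM against 0.378 and 0.106 CPM (-3.70 ± 0.62, edgeR adjusted p = 0.00459).

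Metabolic lists held few or no calls. Among 21 de novo lipogenesis genes edgeR called 0 (0 upward and 6 downward at an unadjusted p under 0.05), and DESeq2 called 2 lower, Scd1 and Acss2. The median was -0.62 against -0.01 for all tested genes, and 19 of 21 fold changes were negative. Scd1, which makes monounsaturated fatty acids, was at 9873, 7056 and 1007 CPM in AL_0h and at 652 and 961 CPM in CR_0h (-2.89 ± 0.80, edgeR adjusted p = 0.0944). AL_0h 3 was close to CR_0h, and without it Scd1 fell (edgeR adjusted p = 0.0141). Acss2, which makes acetyl-CoA from acetate, was at 434, 409 and 59.8 CPM against 70.9 and 112 CPM (-1.72 ± 0.51, edgeR adjusted p = 0.123). Its AL_0h 3 value lay below both CR_0h values, so the groups overlapped. Without AL_0h 3, Scd1 and Acss2 were the 2 lipogenesis genes that edgeR called.

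PPARA targets had a median of 0.51, and 0 of 29 passed in edgeR (3 upward and 0 downward at an unadjusted p under 0.05) or in DESeq2. Without AL_0h 2 the median was 0.22, against -0.02 for all tested genes. In 9 of the 29 the CR_0h libraries lay above all AL_0h libraries, against 14% of tested genes. Mfsd2a, a lysophospholipid transporter induced by fasting, was at 63.7, 17.8 and 49.2 CPM against 130.3 and 199 CPM (1.92 ± 0.64, edgeR adjusted p = 0.194). Cd36, a fatty acid receptor, was at 73.9, 47.5 and 127 CPM in AL_0h against 149 and 200.1 CPM (1.07 ± 0.45, edgeR adjusted p = 0.35). Of 27 genes of fatty acid oxidation and ketone synthesis 0 passed in edgeR (1 upward and 0 downward unadjusted) or in DESeq2, with a median of 0.26 and 7 genes above all AL_0h libraries. That median was 0.11 without AL_0h 2. Plin2, the main coat protein of lipid droplets in liver, was at 326, 241 and 287 CPM against 277 and 339.9 CPM and overlapped (0.11 ± 0.29, edgeR adjusted p = 0.953).

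In the heme and iron list edgeR called 0 of 17 genes (2 upward and 1 downward at an unadjusted p under 0.05), with a median of 0.06. A single gene of it, Alas1, is given for a large difference that did not pass. Alas1, the rate-limiting enzyme of heme synthesis and a gene that fasting induces, was at 654, 207 and 712 CPM in AL_0h and at 2276 and 3274 CPM in CR_0h (2.40 ± 0.67, edgeR adjusted p = 0.0986). The groups were far apart, with AL_0h 2 lowest. Slc25a25, a mitochondrial carrier of ATP-magnesium and phosphate in the gluconeogenesis list, was at 66.6, 124 and 123 CPM against 302 and 377 CPM (1.70 ± 0.45, edgeR adjusted p = 0.0777). Of the 17 gluconeogenesis genes it was the 1 whose groups did not overlap, against 28.1% of all tested genes, and edgeR called 0 of the 17 (1 upward and 0 downward unadjusted). DESeq2 called Slc25a25 in that list, and Alas1 too.

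Clock genes could not be read without regard to AL_0h 2. Of 19 tested, edgeR called 0 (2 upward and 3 downward unadjusted) and DESeq2 called Nr1d1 and Cry2 lower. The list's median was -0.30. Nr1d1 differed by -3.16 ± 0.96 (edgeR adjusted p = 0.136), but by 0.225 without AL_0h 2. The remaining AL_0h libraries, at 6.78 and 2.18 CPM, overlapped the 6.65 and 3.70 CPM of CR_0h. Cry2, a clock repressor, did not depend on that library in direction: it was at 47.9, 38.0 and 42.8 CPM against 29.1 and 24.4 CPM (-0.68 ± 0.19, edgeR adjusted p = 0.104). Arntl, which encodes the clock activator BMAL1, was at 19.5, 7.07 and 30.4 CPM against 6.50 and 5.08 CPM (-1.71 ± 0.78, edgeR adjusted p = 0.403), with AL_0h 2 next to CR_0h.

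The diet effect at 0 h was set against the same effect at 6, 14 and 22 h, which share no library with it. If the labelled ages are right, time and age cannot be told apart in these comparisons. At 22 h 673 genes (4.88%) differed between CR and AL, at 14 h 3 (0.0218%) and at 6 h 0, with 568 (4.12%) at an unadjusted p under 0.05 in edgeR and 9 called by DESeq2. Of the 66 genes called at 0 h, 4 changed the same way at 22 h, 6.06% of the 0 h calls and 0.594% of the 22 h calls. These were Dusp1, Hspa1a, Rfx4 and Tob1. A further 9 changed the opposite way at 22 h. Foxo3, Btg1, Ccng2, Crebrf, Erbb3, Ipmk and the gene model D930015E06Rik were lower in CR at 0 h and higher in CR at 22 h, while Xpo1 and the membrane protein gene Tmem39a were higher in CR at 0 h and lower at 22 h.

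Nr0b2 differed between times. In CR libraries it was at 11.7 to 28.0 CPM at 6 h, 54.7 to 94.9 CPM at 14 h and 9.60 to 37.2 CPM at 22 h. None of these was as low as the 0.869 and 2.91 CPM of CR_0h, while AL libraries lay between 13.3 and 41.6 CPM at the 4 times. Its diet effect was lower at 0 h than at 6 h by 4.61 ± 0.83 and than at 14 h by 5.57 ± 0.80 (edgeR adjusted p = 0.0318 and 0.000548). The difference from 6 h did not pass without AL_0h 1, CR_0h 1, CR_0h 2, AL_6h 1, AL_6h 2 or CR_6h 2 (edgeR adjusted p between 0.0633 and 0.422). Grb7 behaved alike in CR, with 84.6 CPM or more in each CR library of 6, 14 and 22 h against 25.4 and 32.2 CPM at 0 h. Its diet effect at 0 h was lower than at 6, 14 and 22 h (edgeR adjusted p = 0.0442, 0.000596 and 0.000427). For Grb7 the difference from 6 h passed without AL_0h 3 or CR_6h 3 and in none of the 8 other fits without 1 library of either time (edgeR adjusted p between 0.0707 and 0.422).

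Erbb3 was at 112.7 to 130.1 CPM in CR_22h and at 33.2 to 90.2 CPM in AL_22h, the reverse of the order at 0 h. The diet effects differed by -3.49 ± 0.54 (edgeR adjusted p = 0.000863). Btg1 had a lower diet effect at 0 h than at each other time, by 1.96 ± 0.38, 1.97 ± 0.36 and 2.16 ± 0.35 at 6, 14 and 22 h (edgeR adjusted p = 0.0442, 0.0111 and 0.00149). For Btg1 the difference from 6 h passed without AL_0h 2 or CR_6h 3 and in none of the 8 other such fits (edgeR adjusted p between 0.0645 and 0.494). That from 14 h did not pass without CR_0h 1, CR_0h 2, AL_14h 1 or CR_14h 1 (edgeR adjusted p between 0.0579 and 0.184). In the other direction, Xpo1 in CR_22h was at 15.5 to 23.1 CPM, below the 26.4 to 36.2 CPM of AL_22h, and its effects at 0 and 22 h differed by 1.92 ± 0.28 (edgeR adjusted p = 0.000427). Hspa1b was at 1.77 to 7.82 CPM in CR_6h, 3.19 to 4.43 CPM in CR_14h and 7.07 to 74.3 CPM in CR_22h, in each case below both CR_0h libraries. The difference from the effect at 14 h was 6.06 ± 1.14 (edgeR adjusted p = 0.0176). It did not pass without AL_0h 1, AL_0h 2, CR_0h 1, CR_0h 2, AL_14h 1 or CR_14h 1 (edgeR adjusted p between 0.0541 and 0.149).

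**Figure D5:**
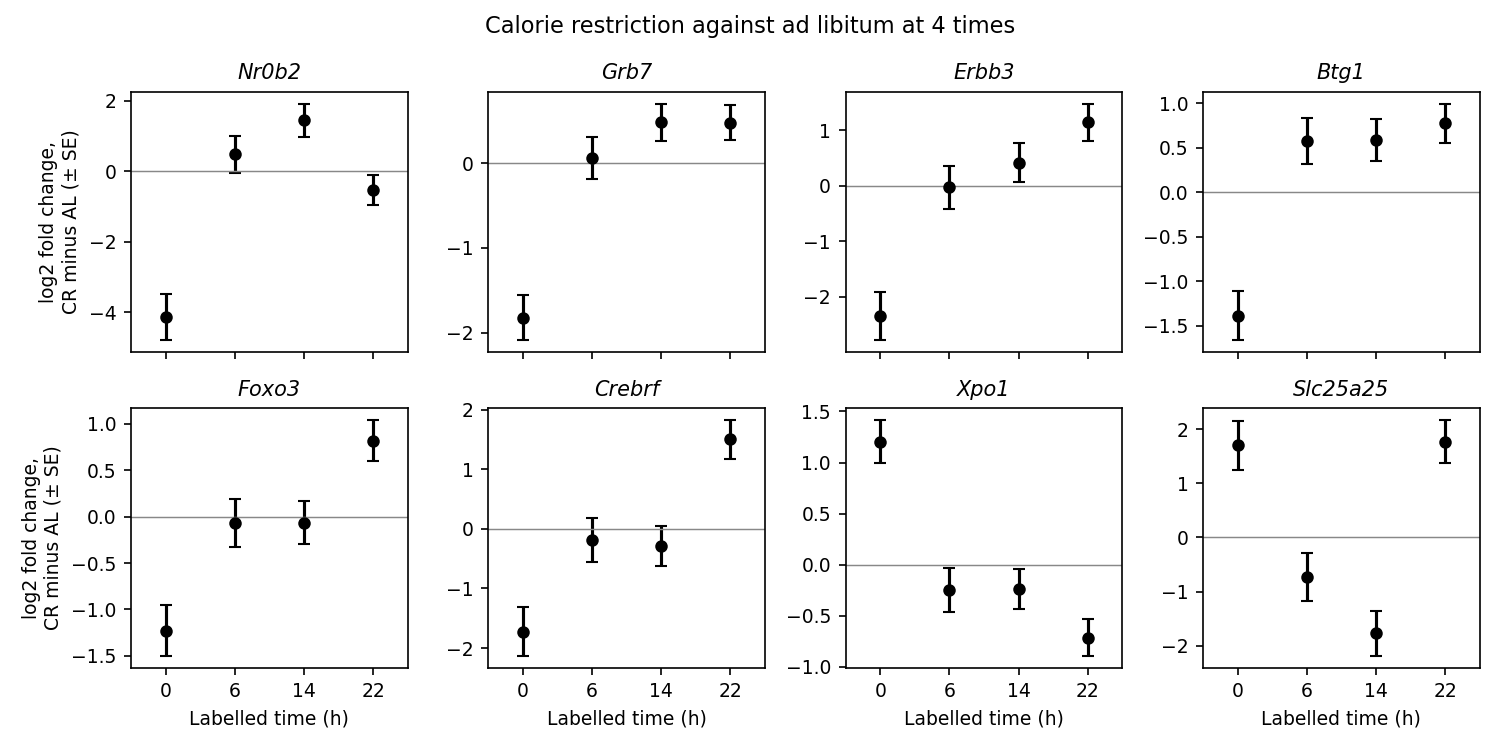
Log2 fold change of CR against AL with its standard error at 4 labelled times in hours for 8 genes. Nr0b2, Grb7, Erbb3 and Btg1 have their lowest value at 0 h, and Foxo3 and Crebrf lie below 0 at 0 h and above 0 at 22 h. Slc25a25, whose 0 h effect did not pass the test, is near 1.70 at 0 h and 1.77 at 22 h and below 0 at 6 and 14 h.

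In all, the diet effect at 0 h differed from that at 6 h in 4 genes (0.029%), from that at 14 h in 15 (0.109%) and from that at 22 h in 188 (1.36%). All 4 for 6 h were lower at 0 h. For 14 h 7 were higher (0.0508%) and 8 lower (0.058%), and for 22 h 74 were higher (0.537%) and 114 lower (0.827%). These counts moved with single libraries of either time. For 22 h the count was 30 without CR_0h 2, 34 without CR_0h 1, 66 without AL_0h 2, 88 without AL_0h 1 and 324 without AL_0h 3. It was 68 without AL_22h 3, 74 without AL_22h 1, 113 without CR_22h 1, 338 without AL_22h 2 and 378 without CR_22h 3. For 14 h it was 3 without CR_0h 2 or CR_14h 1, 5 without CR_0h 1, AL_0h 2 or AL_14h 1, 32 without AL_14h 2, 76 without CR_14h 3 and 80 without AL_0h 3. For 6 h edgeR called 0 without CR_0h 1, CR_0h 2 or AL_6h 1, with 618, 677 and 786 at an unadjusted p under 0.05, and 1 without AL_0h 1, AL_6h 2 or CR_6h 2. With all libraries DESeq2 called 20.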

How the data were processed

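Mouse liver RNA was sequenced in 38 libraries of 13 groups, of which 5 are compared here. Per the submitters' processing notes, the authors aligned reads with Bowtie and estimated gene abundance with RSEM 1.2.3 on GRCm38. The values used are the expected counts the authors deposited, rounded here to whole numbers. The authors also deposited rescaled TPM, a normalized expression signal, used only for the limma alternatives. The libraries are not described as strand-specific, so overlapping genes may share reads. For 26 gene names that a spreadsheet turned into dates, the symbol deposited with the transcript identifiers was used.

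edgeR 4.0.16 in R 4.3.3 fitted all 13 groups with TMM scaling after filterByExpr, which kept 13786 of 21954 genes (62.8%). The quasi-likelihood test compared CR_0h with AL_0h, with Benjamini-Hochberg adjustment and a threshold of 0.05. Standard errors (SE) were taken as the absolute log2 difference over the root of the F statistic. All groups entered the fit so that the spread could be estimated with 2 and 3 libraries a group (common dispersion 0.0785). On simulated data of 13676 genes for this comparison, 51% of changes of log2 1 and 94% of changes of log2 2 were recovered, and 5.84% of calls were false. CPM are TMM-scaled, and they are not set against each other between genes because they are not per length.

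Named genes were the 15 with the greatest change up and down out of the 58 called genes that reached 5 CPM in a group's mean, had no overlap and had a named symbol. For differences between times 5 were taken each way, from genes reaching 10 CPM in a group's mean. Further genes were picked after their values were seen, from the 30 pathway lists and 12 cell type lists and from the calls. The compared groups and the lists were chosen with earlier results of these data known. Alternatives were DESeq2 1.42.0, its size factors, no filter, limma 3.58.1 with pseudocounts of 1 and 0.1, the compared libraries alone, the replicate number as a block, and each library left out in turn. Leaving out AL_0h 2 with AL_22h 2, leaving out libraries of the other times, and DESeq2 beside counts of 0 were added after the data were seen. Same-numbered libraries did not deviate together (correlations of -0.163 and -0.074). The deviations of 2 CR_0h libraries from their mean mirror each other, so this cannot settle whether the numbers pair the libraries. Pairs within AL_0h and within CR_0h differed by more than counting noise (median chi-square per gene 8.79 to 10.5), and other pairs were not compared in this way.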

Additional observations from a re-analysis of the deposited data

Results flagged for a closer look

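The diet effect at 0 h differed from that at another time, by edgeR's quasi-likelihood test of the difference with Benjamini-Hochberg adjustment, in the genes below. Values are the log2 effect at 0 h minus that at the other time, and no explanation was tested. Against 6 h, Nr0b2 differed by -4.61, Grb7 by -1.89 and Btg1 by -1.96.

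Against 14 h the effect at 0 h was higher in Hspa1b by 6.06, in Slc25a25 by 3.47, in Slc20a1 by 2.18, in Xpo1 by 1.44 and in Tob1 by 1.37. It differed by -5.57 in Nr0b2, -2.77 in Erbb3, -2.31 in Grb7, -1.97 in Btg1 and -1.54 in Chic2, a gene of membrane trafficking. The Erbb3 difference from 14 h did not pass without AL_0h 2, AL_14h 1, AL_14h 3 or CR_14h 1 (edgeR adjusted p between 0.0711 and 0.123). It passed without AL_0h 1, AL_0h 3, AL_14h 2, CR_14h 2 or CR_14h 3.

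Against 22 h it was higher in Alg2, a mannosyltransferase gene of glycan assembly, by 2.30, in Pcdh12 by 2.13, in Tmem39a by 2.00, in Xpo1 by 1.92 and in Rnf144b, a ubiquitin ligase gene, by 1.72. It differed by -3.49 in Erbb3, -3.22 in Crebrf, -2.30 in Grb7, -2.16 in Btg1 and -1.91 in Cnppd1. Comparisons with 22 h include AL_22h 2, whose clock genes followed 6 h (correlation 0.878, against -0.959 with 22 h).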

How the results depend on the processing

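The count of 66 genes at 0 h was 242 in the DESeq2 test, 172 in the fit with a replicate block, 16 from the compared libraries alone and 24 without AL_0h 2 and AL_22h 2. Leaving out 1 library gave 0 to 225. The counts of differences between times (4, 15 and 188 for 6, 14 and 22 h) were 20, 88 and 405 in DESeq2, 11, 80 and 411 in the fit with a replicate block, and 1, 1 and 41 from the compared libraries alone. They ranged over 0 to 6, 3 to 80 and 30 to 378 with 1 library left out. Under limma with a pseudocount of 1 and no filter the counts for 6 and 14 h were 9 and 24, and without AL_0h 2 and AL_22h 2 that for 14 h was 34. Whether the numbers pair the libraries could not be settled with 2 CR_0h libraries, so the block is a setting and not a design. Nr1d1 ranged from -3.713 without AL_0h 3 to 0.225 without AL_0h 2, and turned to 0.226 without AL_22h 2 as well. Plin2, at 0.11, turned to -0.006 without AL_0h 2, -0.005 without AL_22h 2 as well and -0.032 without CR_0h 2, and was 0.254 without CR_0h 1. For the called genes named at 0 h, the call was lost 158 times and kept 67 times over the fits without 1 library, and lost 61 times and kept 297 times over the other planned settings. For the named differences between times these were 64 and 196, and 17 and 167. The cause of these shifts was not tested. In the simulated data, with 2 CR_0h libraries, changes of log2 1 were often not recovered.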

Other observations

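Outside the gene groups described above, the interferon-responsive list had a negative median at 0 h and at each other time. At 0 h edgeR called 0 of its 19 genes (0 upward and 1 downward at an unadjusted p under 0.05) and DESeq2 called 0. The median there was -0.50, with 15 negative fold changes. In 5 genes the CR_0h libraries lay below all AL_0h libraries and in 2 above, where 14% of all tested genes lay each way. At 6, 14 and 22 h the list's median diet effect was -0.466, -0.765 and -0.915, and at 22 h edgeR called 4 of its genes lower and 0 higher. Proliferation genes had a median of -0.51 over 19 genes, with 0 called by either tool (0 upward and 1 downward unadjusted). Summed B cell and plasma cell markers were at 7.11, 13.1 and 12.8 CPM in AL_0h and at 6.88 and 6.66 CPM in CR_0h, and their part in these lists was not tested.

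In the list of ATF4 targets and serine synthesis genes edgeR called 0 of 15 (2 upward and 3 downward unadjusted), and DESeq2 called Atf3 higher and Sesn2 lower. Among 22 autophagy and lysosome genes edgeR called 0 (0 upward and 3 downward unadjusted) and DESeq2 called Atg14, a subunit of the kinase complex that starts autophagosomes, lower. Of 21 genes of the unfolded protein response 0 were called by either tool (1 upward and 0 downward unadjusted), with a median of 0.08.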
